A study of Homo sapiens with 6 samples.

Results

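The transcripts of the aminoacyl-tRNA synthetases were followed by RNA sequencing in SH-SY5Y, an immortal line grown from a human neuroblastoma, a tumour of the sympathetic lineage. Of the 6 libraries, 3 are from cells treated with SGC707, which blocks the arginine methyltransferase PRMT3, and 3 from cells treated with DMSO, its solvent. All 6 have the genotype label WT, and each group has libraries A, B and C, whose values are always given in that order. No dose or duration is given in the sources used here. Nothing says that the libraries of a group are independent cultures, and the p-values then cover only a spread that may be technical. The set was defined by gene symbol and not by expression, but with earlier results of these data known. It holds 38 of the 19610 genes in the count table, namely 19 cytosolic enzymes, 16 mitochondrial enzymes and 3 scaffold proteins (AIMP1, AIMP2 and EEF1E1), and the aspartyl-tRNA synthetases are not among them. All 38 passed the filter on low counts and were tested.

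Aminoacyl-tRNA synthetases attach each amino acid to its transfer RNA, and so supply the ribosome with its building blocks. Cytosolic and mitochondrial translation use separate sets of enzymes, both encoded in the nucleus. Most symbols of the cytosolic enzymes end in 1 and those of the mitochondrial enzymes in 2, after a letter for the amino acid, with GARS1 and KARS1 each giving rise to both forms. Several cytosolic enzymes are bound together by the scaffold proteins in the multisynthetase complex. When amino acids run short, the transcription factor ATF4 is known to raise transcription of many cytosolic synthetase genes. Bulk libraries cannot tell fewer cells with a transcript from less transcript per cell.

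Counts on nuclear genes were 7559322 to 8999358 per SGC707 library and 6066305 to 6327895 per DMSO library. Mitochondrially encoded transcripts took 24.3 to 37.7% of all counts with SGC707 and 46.7 to 60.7% with DMSO, so scaling by total counts and scaling by the bulk of genes give different fold changes. The part of this difference in the results was not tested. The values below are CPM, the usual depth-scaled counts, normalised by the second method (trimmed mean of M values). Library SGC707 C stood apart from A and B in a trend with GC content that is described with the values it touches. Of 10 adrenergic neuroblastoma markers, tyrosine hydroxylase (TH) was listed at 0 in all 6 libraries. The list summed to 3828 to 4481 normalised CPM with SGC707 and 4806 to 5815 with DMSO, without overlap, and its part in the results was not tested. Of 5 fibroblast markers, which summed to 126 to 177 normalised CPM with SGC707 and 122 to 153 with DMSO, PDGFRA alone gave 112 to 159 with SGC707 and 109.6 to 135 with DMSO. The Schwann cell marker SOX10 and the leukocyte marker PTPRC were listed at 0 in all 6 libraries.

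The median cytosolic synthetase transcript was more abundant than the median mitochondrial one in every library. Levels per length are normalised CPM for each kilobase of the longest coding transcript. The median level of the 19 cytosolic enzymes was 36.4, 41.2 and 32.6 in the SGC707 libraries, against 35.6, 33.8 and 32.9 in the DMSO libraries. The median level of the 16 mitochondrial enzymes was 7.67, 7.05 and 3.62 in the SGC707 libraries, against 4.35, 4.01 and 5.14 in the DMSO libraries. The highest level was that of GARS1, the glycyl-tRNA synthetase of both compartments, at 89.0 ± 11.4 with SGC707 and 98.4 ± 5.30 with DMSO (SD, n = 3 each). NARS1 (asparagine), LARS1 (leucine) and KARS1 (lysine) came next by the mean over all 6 libraries, at 56.2 to 58.1 with SGC707 and 44.7 to 57.2 with DMSO. With SGC707 they were closer together than the SD of LARS1 (15.3), and with DMSO FARSA and IARS1 were above KARS1. The lowest cytosolic level over all 6 libraries was that of FARSB, although VARS1 (13.2) was lower with DMSO. FARSB encodes the partner subunit of FARSA in phenylalanyl-tRNA synthetase, and its level was 15.0 ± 2.48 with SGC707 and 14.04 ± 0.936 with DMSO, while FARSA stood at 38.3 ± 13.4 with SGC707 and 48.8 ± 4.15 with DMSO (SD, n = 3 each).

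Mitochondrial levels formed 2 ranges. RARS2 (arginine), with 36.1 ± 6.96 with SGC707 and 36.3 ± 1.89 with DMSO, and IARS2 (isoleucine), with 38.9 ± 5.79 with SGC707 and 29.5 ± 5.16 with DMSO, lay among the cytosolic enzymes (SD, n = 3 each). The other 14 had mean levels of 2.22 to 15.7 with SGC707 and 1.49 to 12.1 with DMSO. MARS2, the methionyl enzyme, was the lowest over all 6 libraries, at 2.58 ± 0.0692 with SGC707 and 1.49 ± 0.419 with DMSO (SD, n = 3 each). Of the scaffold genes, AIMP2 stood at 28.2 ± 3.04 with SGC707 and 28.7 ± 5.70 with DMSO, AIMP1 at 24.7 ± 7.59 with SGC707 and 27.8 ± 4.77 with DMSO, and EEF1E1 at 15.3 ± 2.33 with SGC707 and 14.6 ± 1.26 with DMSO (SD, n = 3 each). The 7 enzymes of the multisynthetase complex ranged from QARS1 (glutamine), at 28.8 with SGC707 and 30.2 with DMSO, to LARS1, at 58.0 with SGC707 and 55.8 with DMSO.

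**Figure D1:**
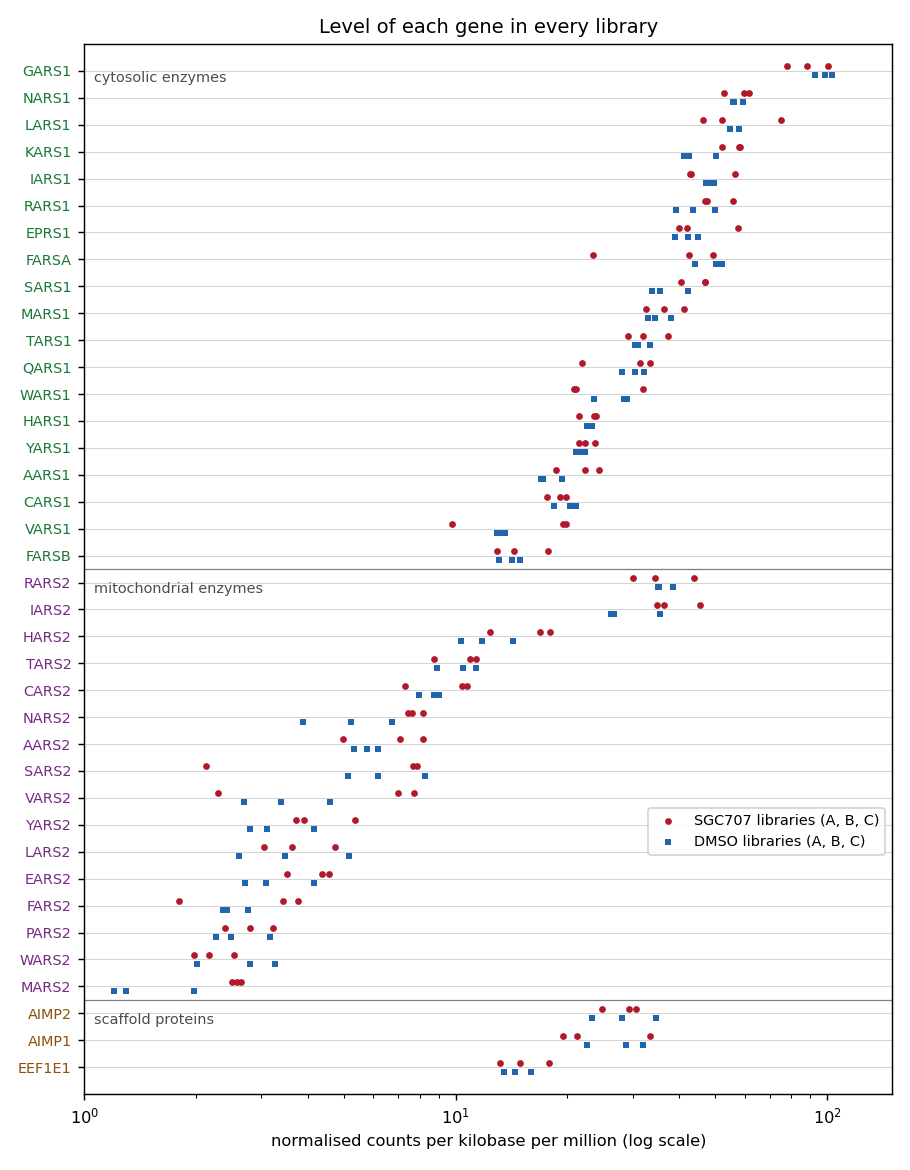
Level of each of the 38 genes in every library, as normalised CPM per kilobase on a log axis, with SGC707 libraries as circles drawn above the squares of the DMSO libraries. The genes are ordered by mean level within the cytosolic, mitochondrial and scaffold groups, and GARS1 is the highest cytosolic and MARS2 the lowest mitochondrial enzyme.

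The first comparison asked whether SGC707 changed the transcript level of any of these genes. None of the 38 passed the test (edgeR's quasi-likelihood test, Benjamini-Hochberg adjustment over 12196 genes, threshold 0.05), where 0.0246% of all tested genes did. DESeq2 and limma-voom also called 0 of the 38, where they called 2.52% and 0.0164% of all genes, and gave 2 and 3 members an unadjusted p under 0.05, where 12.8% and 12.9% of all genes had one. DESeq2 gave some genes no adjusted p, MARS2 among them. MARS2 could thus not be called there, although its unadjusted p was under 0.05. The 2.52% is a share of all 12196 genes, with or without an adjusted p. In edgeR 3 members had an unadjusted p under 0.05, namely MARS2, NARS2 and KARS1, all with higher values under SGC707. That is 7.89% of the members, against 12.8% of all tested genes. The same 3 genes had all SGC707 libraries above all DMSO libraries and 0 members had them all below, where 20.6% of all tested genes did not overlap and 10.8% were higher without overlap. A change of 2-fold or more lay outside the 95% interval of 34 members, and the intervals of MARS2, NARS2, SARS2 and VARS2 reached past it.

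The log2 fold change of SGC707 over DMSO (log2FC) was positive in 12 and negative in 7 of the 19 cytosolic enzymes, and its median was 0.05. Of the 16 mitochondrial enzymes, 13 were positive and 3 negative, and the median was 0.24. Over all tested genes 52.8% were positive and the median was 0.02. Without library SGC707 C the medians were -0.027 for the cytosolic and 0.35 for the mitochondrial enzymes. Scaling by library totals alone moved the median of all genes to 0.69 and the 2 sets to 0.71 and 0.94, and called 17 members higher, with 21.4% of all genes called. Standard errors had a median of 0.15 in the cytosolic and 0.24 in the mitochondrial set, whose counts per library ranged from 461 to 4606 and from 38 to 2081.

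**Figure D2:**
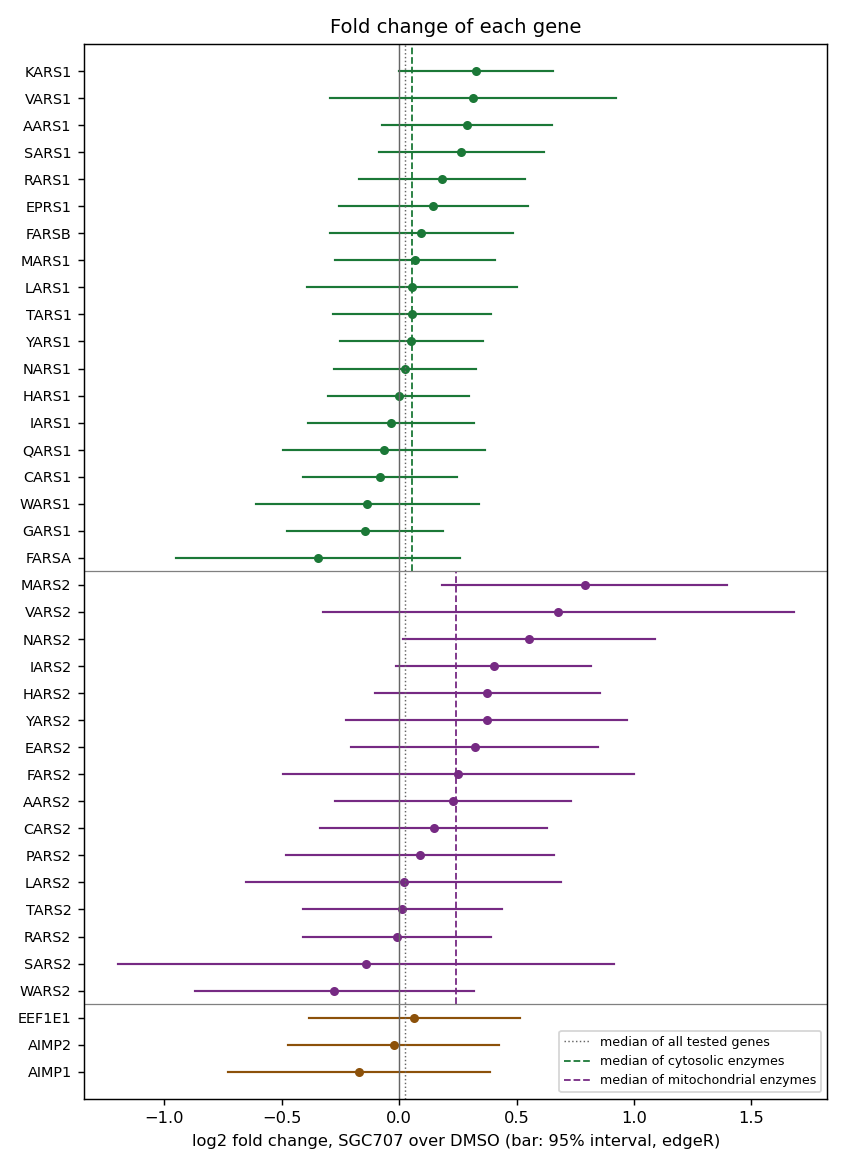
Log2 fold change of SGC707 over DMSO for each gene with its 95% interval (edgeR), cytosolic enzymes at the top, then mitochondrial enzymes and scaffold proteins. Dashed lines mark the medians of 0.05 (cytosolic) and 0.24 (mitochondrial) and the dotted line that of all tested genes, 0.02.

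Among the cytosolic enzymes of the multisynthetase complex, KARS1 had the smallest p. It encodes lysyl-tRNA synthetase and lies on chromosome 16, 75627474 to 75648643 (GRCh38, as are all positions below). KARS1 had 126, 141 and 140.1 normalised CPM in the SGC707 libraries, against 103, 99.9 and 122 in the DMSO libraries. Every SGC707 library was above every DMSO library, with log2FC 0.33 (SE 0.14, edgeR adjusted p = 0.390). RARS1, for arginine, had 101, 102 and 120 normalised CPM in the SGC707 libraries, against 93.3, 84.0 and 107 in the DMSO libraries (log2FC 0.18, edgeR adjusted p = 0.648). EPRS1, which joins the glutamyl and prolyl enzymes in a single protein, had 199.8, 211 and 288 normalised CPM with SGC707 and 195, 211 and 226 with DMSO (log2FC 0.15, edgeR adjusted p = 0.758). In RARS1 and EPRS1 the groups overlapped, SGC707 C was the highest library, and without it the log2FC of EPRS1 was -0.042. The other complex enzymes, IARS1, LARS1, MARS1 and QARS1, had log2FC values of -0.06 to 0.07. The set of 7 had a median of 0.07, and the 12 cytosolic enzymes outside the complex 0.04.

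Of the enzymes outside the complex, alanyl-tRNA synthetase AARS1 (chromosome 16, 70252295 to 70289543) had 77.5, 84.7 and 64.8 normalised CPM in the SGC707 libraries, against 59.6, 58.9 and 67.3 in the DMSO libraries. Its groups overlapped through SGC707 C, and log2FC was 0.29 (SE 0.16, edgeR adjusted p = 0.492). The seryl enzyme SARS1 had 76.1, 88.0 and 88.1 normalised CPM with SGC707, against 67.0, 63.6 and 79.5 with DMSO (log2FC 0.26, edgeR adjusted p = 0.506). DMSO C lay among the SGC707 values. GARS1 had 205, 233 and 265 normalised CPM with SGC707, against 245, 272 and 260.3 with DMSO (log2FC -0.14, SE 0.14, edgeR adjusted p = 0.708), and its groups overlapped.

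FARSA and VARS1 were split within the SGC707 group. FARSA (chromosome 19, 12922479 to 12934037) had 101, 87.2 and 48.1 normalised CPM in the SGC707 libraries, against 107, 103 and 90.7 in the DMSO libraries (log2FC -0.35, SE 0.26, edgeR adjusted p = 0.608). The valyl enzyme VARS1 (chromosome 6, 31777518 to 31795953) had 85.6, 84.1 and 42.1 normalised CPM with SGC707, against 56.4, 58.4 and 55.6 with DMSO (log2FC 0.31, SE 0.26, edgeR adjusted p = 0.648). SGC707 C was the lowest of all 6 libraries for both genes. The log2FC of FARSA was -0.095 without SGC707 C and -0.57 without SGC707 A. FARSB had 43.5, 48.3 and 59.8 normalised CPM with SGC707 and 44.0, 47.7 and 50.2 with DMSO (log2FC 0.09, edgeR adjusted p = 0.856), so SGC707 C was the lowest library for FARSA and the highest for its partner. Without SGC707 C the log2FC of FARSB was -0.048. The remaining cytosolic genes CARS1 (cysteine), HARS1 (histidine), NARS1, TARS1 (threonine), WARS1 (tryptophan) and YARS1 (tyrosine) had log2FC values of -0.14 to 0.05, with edgeR adjusted p from 0.818 to 0.997.

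None of the 3 scaffold genes passed the test. AIMP1, whose protein is also the precursor of a secreted cytokine, had 50.3, 54.8 and 86.4 normalised CPM with SGC707, against 58.5, 82.7 and 74.5 with DMSO (log2FC -0.17, edgeR adjusted p = 0.798). AIMP2, the core scaffold of the complex, had 35.8, 37.4 and 30.3 with SGC707, against 28.5, 42.4 and 34.4 with DMSO (-0.02, edgeR adjusted p = 0.971). EEF1E1, also known as AIMP3, had 16.1, 14.2 and 19.2 with SGC707, against 14.5, 15.5 and 17.2 with DMSO (0.07, edgeR adjusted p = 0.918). The groups overlapped in all 3 genes, and the signs of AIMP2 and EEF1E1 turned without SGC707 C (0.057 and -0.061).

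Among the mitochondrial enzymes, MARS2 and NARS2 had the smallest p. MARS2 (chromosome 2, 197705369 to 197708387) had 7.98, 7.80 and 7.56 normalised CPM in the SGC707 libraries, against 3.62, 3.91 and 5.94 in the DMSO libraries. The counts behind these were 132, 124 and 97 with SGC707 and 38, 40 and 66 with DMSO, and log2FC was 0.79 (95% interval 0.18 to 1.40, edgeR adjusted p = 0.2996). NARS2, the asparaginyl enzyme (chromosome 11, 78435961 to 78574874), had 19.2, 20.6 and 18.7 normalised CPM with SGC707, against 13.2, 9.78 and 16.9 with DMSO (log2FC 0.55, 95% interval 0.02 to 1.09, edgeR adjusted p = 0.380). Neither gene's groups overlapped, and in both the spread was wider among DMSO than among SGC707 libraries.

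IARS2 (chromosome 1, 220094102 to 220148041) had 124, 129.7 and 162 normalised CPM with SGC707, against 95.3, 93.3 and 126 with DMSO (log2FC 0.40, SE 0.18, edgeR adjusted p = 0.410). YARS2, for tyrosine, had 11.4, 8.30 and 7.87 with SGC707, against 5.91, 8.80 and 6.57 with DMSO (0.37, SE 0.26, edgeR adjusted p = 0.581). RARS2 had 54.7, 62.6 and 79.5 normalised CPM with SGC707, against 69.9, 63.7 and 64.2 with DMSO (log2FC -0.0080, edgeR adjusted p = 0.991). The groups overlapped in these 3 genes.

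VARS2 (chromosome 6, 30908242 to 30926459) had 31.5, 28.6 and 9.35 normalised CPM in the SGC707 libraries, against 13.8, 10.9 and 18.6 in the DMSO libraries (log2FC 0.68, SE 0.43, edgeR adjusted p = 0.549). As in its cytosolic counterpart VARS1, SGC707 A and B were above all DMSO libraries and SGC707 C below them all. AARS2 (alanine), CARS2, EARS2 (glutamate), FARS2 (phenylalanine), LARS2, PARS2 (proline), SARS2 (serine), TARS2 and WARS2 had log2FC values of -0.28 to 0.32, with edgeR adjusted p from 0.585 to 0.987. The least precise of all was SARS2 (SE 0.46), with 16.2, 15.8 and 4.36 normalised CPM with SGC707, against 17.0, 12.7 and 10.5 with DMSO.

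The second comparison set the cytosolic against the mitochondrial enzymes. The cytosolic set includes GARS1 and KARS1, whose genes also give rise to the mitochondrial forms, so its sums are not purely cytosolic. The cytosolic enzymes took 0.406, 0.424 and 0.432% of nuclear counts in the SGC707 libraries, against 0.385, 0.386 and 0.411% in the DMSO libraries. The mitochondrial enzymes took 0.0823, 0.0823 and 0.0715% in the SGC707 libraries, against 0.0627, 0.0557 and 0.0721% in the DMSO libraries. The 95% Wilson intervals of these shares are at most 0.00498 percentage points to each side, for counting error only. DMSO C was above SGC707 A in the cytosolic share and above SGC707 C in the mitochondrial share, so neither separated the groups. Summed cytosolic over summed mitochondrial counts gave a ratio of 4.94, 5.15 and 6.04 in the SGC707 libraries, against 6.14, 6.92 and 5.70 in the DMSO libraries. The mean ratios of 5.38 ± 0.585 with SGC707 and 6.25 ± 0.619 with DMSO (SD, n = 3 each) differed by more than their SD, yet the groups overlapped. This ratio is a score over chosen genes and was given no p-value.

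**Figure D3:**
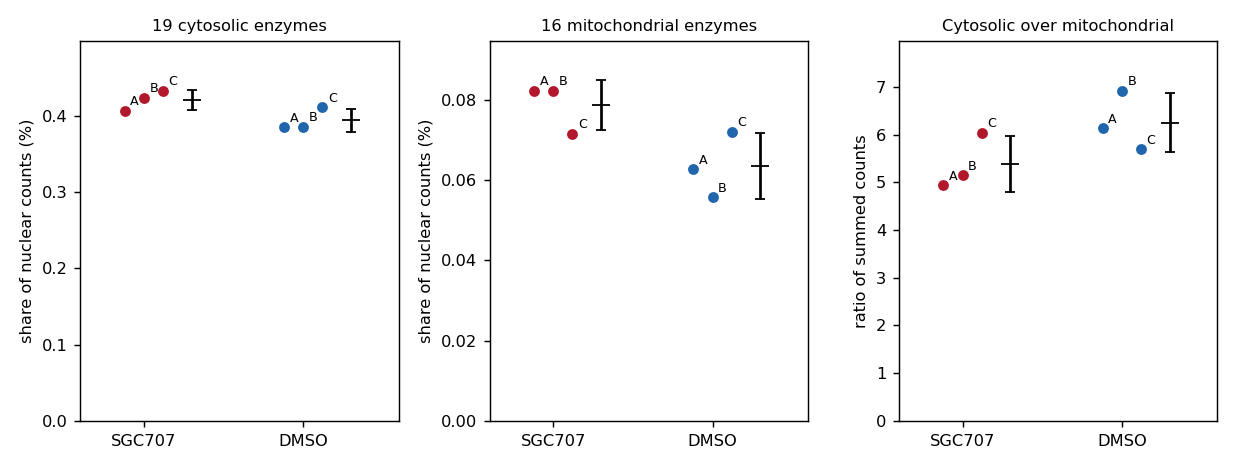
Share of nuclear counts taken by the 19 cytosolic and the 16 mitochondrial enzymes, and the ratio of the summed counts, per library (lettered points) with the mean and SD of each group (n = 3). Each axis starts at 0, and in every panel the groups overlap through DMSO C. The cytosolic set includes GARS1 and KARS1, which serve both compartments.

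For 14 amino acids an enzyme of each compartment was measured, and the cytosolic level per length was above the mitochondrial one in all 14, with SGC707 and with DMSO. The ratio of levels ran from 1.22 (isoleucine) to 15.2 (leucine) with SGC707 and from 1.21 (arginine) to 24.2 (methionine) with DMSO. The mitochondrial enzyme had the larger log2FC in 8 pairs and the cytosolic enzyme in 6. In the methionine pair, MARS1 over MARS2, the log2 ratio was 3.83 ± 0.152 with SGC707 and 4.59 ± 0.476 with DMSO (SD, n = 3 each). In the asparagine pair it was 2.91 ± 0.196 with SGC707 and 3.47 ± 0.356 with DMSO, and in the isoleucine pair 0.28 ± 0.0351 with SGC707 and 0.74 ± 0.218 with DMSO. The phenylalanine pair, FARSA over FARS2, stood at 3.68 ± 0.174 with SGC707 and 4.27 ± 0.243 with DMSO. In these 4 pairs each SGC707 library was below each DMSO library, and in the other 10 the groups overlapped. The phenylalanine pair rests on FARSA (log2FC -0.35), and FARSB (log2FC 0.09), the other cytosolic subunit, was not paired. The 4 pairs are named for their values. Of single genes, 9.78% were lower without overlap and 20.6% did not overlap in either direction. These are shares of genes and not of ratios between genes, for which no share over all genes is given. An exact permutation test of 3 against 3 libraries cannot go below p = 0.1, so no pair was tested.

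**Figure D4:**
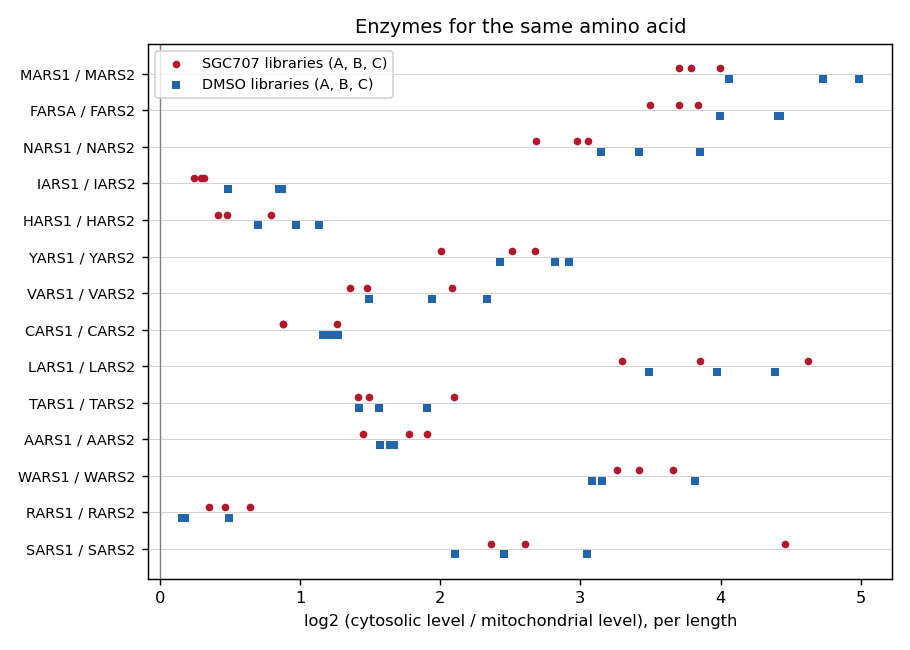
Log2 ratio of cytosolic to mitochondrial level, each per length, for 14 amino acids in every library, with SGC707 libraries as circles drawn above the squares of the DMSO libraries. Pairs are ordered by the difference between groups, from MARS1 / MARS2, where SGC707 is lower, to SARS1 / SARS2, where it is higher through SGC707 C.

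The spread within the SGC707 group went with the GC content of the genes. Transcript GC content ran from 36.3% (AIMP1) to 62.6% (VARS1) among the members, with a median of 48.6% in the cytosolic and 51.2% in the mitochondrial set. Across the 38 genes the log2 ratio of SGC707 C to the mean of SGC707 A and B (normalised CPM plus 1) had a Spearman correlation of -0.84 with GC content. Across 12167 tested nuclear genes it was -0.77. For DMSO C against DMSO A and B the correlations were -0.32 over the members and -0.26 over the nuclear genes. These points share the same libraries and genes are not independent replicates.

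Of the 9 members with at least 55% GC, SGC707 C was the lowest SGC707 library in 8, with a median log2 ratio of -0.81. Of the 13 members under 45% GC it was the highest in 12, with a median of 0.35. The lowest ratios belonged to SARS2 (-1.66), VARS2 (-1.58), VARS1 (-0.99) and FARSA (-0.955), with 60.2 to 62.6% GC, and the highest to AIMP1 (0.70), LARS1 (0.61) and WARS1 (0.60). WARS1, the tryptophanyl enzyme, has 51.8% GC, above the members' median of 50.4%.

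Without SGC707 C, 2 of 38 members passed, where 9.26% of all genes did, and 12 had an unadjusted p under 0.05, where 30.0% did. The 2 were VARS1, with log2FC 0.57 (edgeR adjusted p = 0.0277), and VARS2, with 1.05 (edgeR adjusted p = 0.0349). Their GC contents are 62.6% and 60.2%. In this fit log2FC itself had a Spearman correlation with GC content of 0.48 over the members and 0.26 over the tested nuclear genes. With all libraries these correlations were 0.05 and -0.12. With all libraries and a correction of each for GC content and length, 0 members passed, where 0.517% of all genes did. At an unadjusted p under 0.05 there were 8 members after the correction, 7 higher and FARSA lower, where 23.9% of all genes reached it. VARS1 (0.43, edgeR adjusted p = 0.0684) and VARS2 (0.69, edgeR adjusted p = 0.219) did not pass after it.

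**Figure D5:**
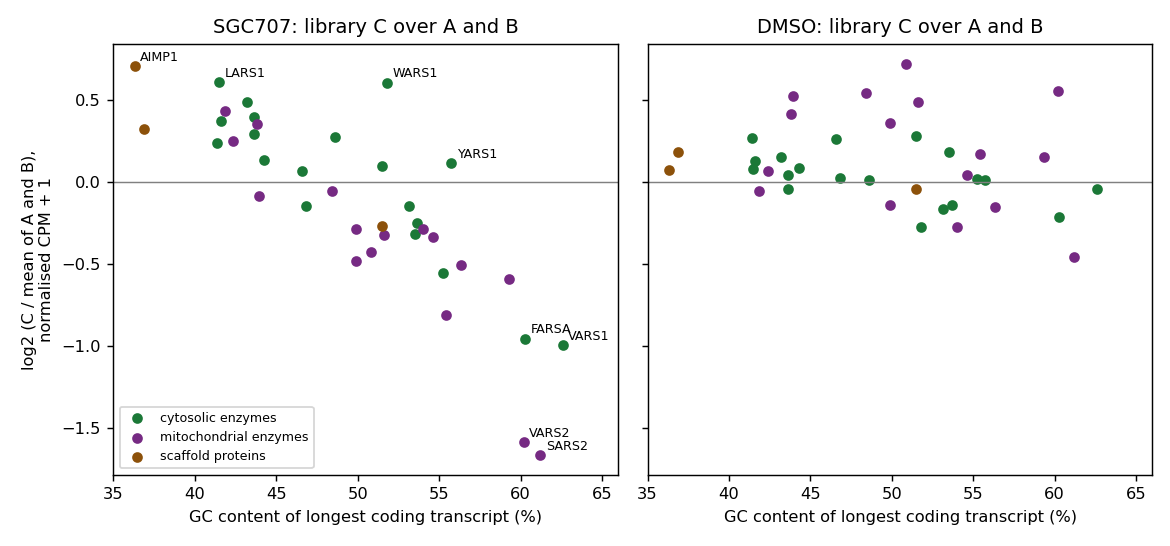
Log2 ratio of library C to the mean of libraries A and B (normalised CPM plus 1) against transcript GC content for the 38 genes, for SGC707 on the left and DMSO on the right. The SGC707 points run from 0.70 (AIMP1) at low GC content down to -1.66 (SARS2) at high GC content, and the DMSO points show a weaker slope.

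Synthetase genes reported as targets of ATF4 were read as a group of their own, since that factor links their transcription to amino acid supply. Of these 13 cytosolic genes 0 passed the edgeR test, where 0.0246% of all tested genes did. At an unadjusted p under 0.05 there were 0 of the 13, where 12.8% of all tested genes had one. The log2FC of the 13 was positive in 9 and negative in 4, and its median was 0.05. Without SGC707 C it was positive in 5 and negative in 8, and the median was -0.039. In that fit 1 of the 13 (VARS1) passed, where 9.26% of all genes did. The 6 other cytosolic genes had 3 positive and 3 negative values and a median of 0.05. ATF4 itself had 109, 107 and 67.1 normalised CPM in the SGC707 libraries, against 86.7, 85.1 and 86.5 in the DMSO libraries (log2FC 0.13, edgeR adjusted p = 0.814), so its groups overlapped through SGC707 C.

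The DNA element bound by ATF4 with C/EBP factors was searched as the letters TGATGCAA on both strands, in promoter windows from 250 bases before to 50 bases after each RefSeq start (GRCh38.p14). Windows were matched for 33 of the 38 members. The letters stood in 6 of 16 cytosolic genes (37.5%), in 0 of 14 mitochondrial and 0 of 3 scaffold genes, and in 1.08% of 27305 genes with a window. All 6 belong to the 13 ATF4 targets, of which 10 had a window. The stretches that hold a match are shown 5′ to 3′ on the strand of the gene, with the match in capitals, which reads TTGCATCA where it lies on the opposite strand. They come from chr5:33440905-33440988 (plus strand), chr9:92293674-92293757 (minus), chr11:3057400-3057483 (minus), chr12:57488008-57488091 (plus), chr16:70289648-70289731 (minus) and chr18:57621813-57621896 (minus). Each runs from 60 bases before to 24 after the start, except that of AARS1, which lies 225 to 142 bases before it.
TARS1: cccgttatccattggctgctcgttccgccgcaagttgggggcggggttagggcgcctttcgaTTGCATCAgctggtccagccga
IARS1: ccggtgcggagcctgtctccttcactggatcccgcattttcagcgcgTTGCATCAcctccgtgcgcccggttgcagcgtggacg
CARS1: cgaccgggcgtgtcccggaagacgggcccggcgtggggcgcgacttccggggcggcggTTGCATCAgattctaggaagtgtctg
MARS1: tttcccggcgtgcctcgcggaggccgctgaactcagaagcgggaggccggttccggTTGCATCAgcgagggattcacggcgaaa
AARS1: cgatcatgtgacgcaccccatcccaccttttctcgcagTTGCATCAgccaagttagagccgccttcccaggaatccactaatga
NARS1: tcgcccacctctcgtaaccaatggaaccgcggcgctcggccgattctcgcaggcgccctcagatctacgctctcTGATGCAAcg

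In TARS1, IARS1, CARS1, MARS1 and NARS1 the match lay within 22 bases of the start, and in AARS1 it began 187 bases before it. The log2FC values of these genes were 0.05 (TARS1), -0.04 (IARS1), -0.08 (CARS1), 0.07 (MARS1), 0.29 (AARS1) and 0.02 (NARS1), with edgeR adjusted p from 0.492 to 0.958. A match describes letters only and does not show that a factor was bound.

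The histidyl enzymes HARS1 (cytosolic) and HARS2 (mitochondrial) lie head to head on chromosome 5, and their RefSeq starts are at 140691370 and 140691455 with 84 bases between. That stretch, chr5:140691370-140691455, is printed on the strand of HARS2. Its first letter, in capitals, is the start of HARS1, which is read leftward, and its last letter, in capitals, is the start of HARS2.
HARS1-HARS2: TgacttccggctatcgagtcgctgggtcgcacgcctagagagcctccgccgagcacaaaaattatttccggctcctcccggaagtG

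HARS1 had 82.2, 83.6 and 74.9 normalised CPM in the SGC707 libraries, against 80.8, 79.1 and 81.2 in the DMSO libraries (log2FC -0.0020, 95% interval -0.30 to 0.30, edgeR adjusted p = 0.997). HARS2 had 42.4, 45.1 and 31.0 with SGC707, against 29.6, 25.9 and 35.9 with DMSO (log2FC 0.38, 95% interval -0.10 to 0.85, edgeR adjusted p = 0.499). The groups of both genes overlapped. The log2 ratio of HARS1 to HARS2 levels was 0.56 ± 0.204 with SGC707 and 0.94 ± 0.219 with DMSO (SD, n = 3 each). In GENCODE the 2 genes overlap on opposite strands, HARS1 reaching to 140691862 and HARS2 beginning at 140691426, and reads there cannot be told apart unless they were counted by strand.

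The wider pathway was read from 27 further genes. Most act in the maturation, editing or modification of transfer RNA, in elongation and recycling in translation, or in sensing uncharged transfer RNA. TARS3, a threonyl-tRNA synthetase, was listed with them and not with the cytosolic enzymes. All 27 were tested and 0 passed in either direction, where 0.0246% of all tested genes did. The log2FC of the 27 was positive in 18 and negative in 9 (median 0.12). Without SGC707 A it was positive in 13 and negative in 14 (median -0.0099). At an unadjusted p under 0.05 there were 3 of the 27, where 12.8% of all tested genes had one. EEF1A1, the elongation factor that brings charged transfer RNA to the ribosome, had 1199, 1086 and 1340.4 normalised CPM with SGC707, against 603, 654 and 957 with DMSO (log2FC 0.71, SE 0.20, edgeR adjusted p = 0.263), and its many pseudogenes make its count uncertain. SEPSECS, which completes selenocysteine on its transfer RNA, had 17.6, 14.8 and 20.2 with SGC707, against 13.0, 10.3 and 13.1 with DMSO (0.53, edgeR adjusted p = 0.355). GATB, a subunit of the amidotransferase that completes mitochondrial glutaminyl-tRNA, had 17.1, 17.5 and 17.1 with SGC707, against 23.7, 22.8 and 22.1 with DMSO (-0.40, edgeR adjusted p = 0.357). These 3 genes and EEF1B2, a subunit of the exchange factor of EEF1A1 (log2FC -0.12, edgeR adjusted p = 0.720), had groups that did not overlap, as did 20.6% of all tested genes. Of the partners of GATB, QRSL1 (log2FC 0.21) and GATC (log2FC 0.18) did not pass, nor did EARS2 (log2FC 0.32, edgeR adjusted p = 0.585), which charges that transfer RNA with glutamate.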

How the data were processed

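RNA from 3 SGC707 and 3 DMSO samples of SH-SY5Y cells, grouped by the treatment label, was sequenced as mRNA libraries on a NovaSeq instrument, per the labels' protocols. The authors deposited raw read counts, whole numbers for each gene symbol without scaling. HISAT2, StringTie and GRCh38 are named per the submitters' processing notes. Neither tool versions nor the gene annotation, strandedness or treatment of multi-mapped reads are given in the sources used here.

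SGC707 was compared with DMSO by edgeR 4.0.16 under R 4.3.3 (filterByExpr, 12196 genes, TMM scaling, robust glmQLFit and glmQLFTest, Benjamini-Hochberg adjustment over all tested genes, threshold 0.05). Standard errors are the log2 fold change over the square root of F. Lengths and GC content are those of the longest coding transcript in GENCODE 29, matched for 19294 of 19610 rows by symbol and 296 by gene ID. Promoters are from RefSeq. Alternatives used DESeq2 1.42.0 and limma 3.58.1. The procedure was tested on simulated data. Figures used matplotlib 3.10.9.

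The 38 genes and all lists were chosen with earlier results of these data known, and the motif searches and the GC classes were chosen after seeing the data. Values in every library are given for members past the threshold, the 8 cytosolic and 6 mitochondrial members with the smallest p, the scaffold genes, GARS1, KARS1 and the highest and lowest level of each compartment. SARS2, HARS1, the pairs and EEF1A1, EEF1B2, SEPSECS and GATB were named for their values or position. Replicates within a group differed beyond sampling noise (chi-square per degree of freedom at least 12.4). A count of 0 allows up to 3 counts, and no member was below 38.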

Additional observations from a re-analysis of the deposited data

How the results depend on the processing

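With RLE size factors, no filter, the stricter filter, DESeq2, limma-voom, the fit without mitochondrially encoded genes, the GC and length correction or a threshold of 0.01, 0 members passed. In DESeq2 MARS2 had no adjusted p and could not be called. The fits without 1 library gave 0 to 2 members higher and 0 lower, with medians of -0.027 to 0.088 for cytosolic and 0.13 to 0.35 for mitochondrial enzymes, the 2 without SGC707 replicate C (VARS1 and VARS2). Library totals alone gave 17 higher members and medians of 0.71 and 0.94, against 0.69 for all genes. With totals alone the log2 fold change was positive in all 38 members, so that the 12 negative ones turned sign, among them FARSA (0.38), GARS1 (0.51), AIMP1 (0.47), AIMP2 (0.68) and RARS2 (0.64). Across the fits without 1 library the value ran from -0.042 to 0.25 for EPRS1, from -0.061 to 0.16 for EEF1E1, from -0.16 to 0.13 for AIMP2, from -0.048 to 0.19 for FARSB and from -0.17 to 0.11 for RARS2. After the correction EEF1E1 stood at -0.12. The cause was not tested. Over all genes the calls were 3 in edgeR, 2605 with totals alone, 1147 without SGC707 replicate C, 307 with DESeq2, 63 after the correction, 9 without SGC707 replicate A, 6 with no filter, 5 without DMSO replicate C, 2 with limma-voom and 0 in the other fits without 1 library, with the replicate block and at 0.01.

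Same-lettered libraries correlated at 0.082 (A), -0.0031 (B) and 0.12 (C) in their deviations from the group means, so the letters were not taken as pairs. With the replicate block 0 members passed, with medians of 0.05 (cytosolic) and 0.20 (mitochondrial). Counts of mitochondrial enzymes went down to 38 per library, and the widest standard errors were those of SARS2 (0.46) and VARS2 (0.43).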

Other observations

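Other promoter letters gave smaller contrasts between the compartments. The E-box CACGTG stood in 1 of 16 cytosolic and 3 of 14 mitochondrial genes (MARS2, CARS2 and EARS2), against 8.77% of 27305 genes with a window. The NRF1 site was searched with any base at its centre and on both strands. It stood in 3 of 16 cytosolic genes (SARS1, FARSB and TARS1) and 3 of 14 mitochondrial genes (PARS2, IARS2 and MARS2). Its share of all genes was 6.98%. The E-box and the NRF1 site each stood in 1 of 3 scaffold genes, which was AIMP2 for both. Among the members, MARS2 and AIMP2 thus hold both. By structural class, log2 fold changes were positive in 13 and negative in 6 of the 19 class I genes (median 0.07), and positive in 13 and negative in 4 of the 17 class II genes (median 0.09). EPRS1 counts in both.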
